A study of Arabidopsis thaliana with 47 samples.

Results

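The mitochondrial genome of Arabidopsis thaliana keeps a small set of genes, mostly for subunits of the respiratory chain, the ATP synthase, the cytochrome c maturation machinery and the mitochondrial ribosome, while the nucleus encodes the other proteins of these complexes. Mitochondrial genes are transcribed by phage-type RNA polymerases encoded in the nucleus, and their transcripts are spliced, trimmed and edited at many cytidines. The mitochondrial transcripts described here are the rows of the deposited count table whose locus code starts with ATMG, without the 2 most abundant ones, ATMG00020 and ATMG01390, and with a mean of at least 5 counts over the 47 libraries. The table held 58 such codes among 36823 loci, and 44 of them met the rule. They were thus selected on their mean count, which is given here as a description only. ATMG00700 (5.30 counts), ATMG00900 (5.53) and ATMG00800 (5.87) lay just inside the minimum, and ATMG00330 (4.38) and ATMG00230 (3.62) just outside.

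RNA was taken from the dissected root meristematic zone of 6-day-old seedlings after 24 h in medium with mock solution, 0.3 nM or 5 nM RGF1, a secreted peptide hormone that maintains root meristem activity. All 9 groups carried the plt2 mutation. The 3 genotypes were plt2 alone, plt2/gPLT2-GFP (gPLT2 below), which carries the transcription factor PLETHORA 2 as a genomic fusion to green fluorescent protein, and plt2/gPLT2C212S-GFP (gPLT2C212S below), whose transgene differs by the change named in its label. Each library held 50 root sections, and each group had n = 5 libraries, except n = 6 in gPLT2 and gPLT2C212S at 5 nM. Whether replicates came from separate seedling batches is not given in the sources used here, so p-values measure the spread between these libraries. How many independent transgenic lines were used is not given either.

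Levels per library are given as CPM (counts scaled to a fixed total per library) of the counts outside ATMG00020 and ATMG01390, with TMM scaling. PLT2 (AT1G51190) was low in every plt2 group, at a mean of 5.64 to 7.07 CPM, and stood at 34.1 to 75.5 CPM in the transgenic groups. The meristem gene SCR (AT3G54220) was at 56.1 to 111 CPM in the 47 libraries and SHR (AT4G37650) at 19.0 to 55.5 CPM. The root hair genes EXPA7 and EXPA18 reached at most 0.891 and 0.474 CPM and had no count in 32 and 41 libraries, while COBL9 (AT5G49270), also of root hairs, reached 7.77 CPM and had no count in 8. The leaf genes RBCS1A and CAB2 reached at most 1.79 and 0.938 CPM, and CAB1 (AT1G29930) up to 22.8 CPM. The libraries held 7739807 to 10332541 counts. ATMG00020 and ATMG01390 took 45.0% to 70.4% of them, which left 2677329 to 5139527 counts for all other loci and 113537 to 189554 for the mitochondrial members.

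The locus codes carry no gene names in the files. For 30 of the 44 members the exon length implied by the deposited counts and FPKM equalled that of a single mitochondrial coding sequence in RefSeq (assembly TAIR10.1), and these members are called by that gene. A further 9 members had exons of under 100 bases and no name, 1 member (ATMG01380) had no FPKM row, and the other 4 matched no single coding sequence. ATMG00730 is one of those: its exon length was 314 bases, whereas ATMG00735 had the 798 bases of cox3, so ATMG00730 is called by its code. In the counts by role, complex IV holds cox1, cox2 and ATMG00730, and cox3 (ATMG00735) is among the members without a role. ATMG00560, whose 1050 bases matched more than 1 coding sequence, ATMG00180 and ATMG01280 are also called by their codes.

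Transcripts for proteins of the mitochondrial ribosome led the list of members. ATMG00020 and ATMG01390, which the rule leaves out, are taken here as the 2 ribosomal RNA loci. The ribosomal protein gene rps3 (ATMG00090) held a mean of 23.1% of the members' counts and rpl16 (ATMG00080) 12.2%. The coding sequences of both overlap by 134 bases on the same strand in RefSeq, so reads there cannot be assigned to either. Next came cox1 (ATMG01360), the catalytic core of cytochrome c oxidase (complex IV), with 11.2%, and atp4 (ATMG00640), a stator subunit of the ATP synthase, with 11.1%. These 4 held 57.6% of the members' counts and the first 10 held 86.7%. The others of the first 10 were nad1, nad5, nad7, nad4L and nad9 of complex I, the NADH dehydrogenase, and cox2 of complex IV.

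Levels per length, compared as the authors' FPKM averaged over the libraries, spanned a wide range. The highest among the named genes were rpl16 (ATMG00080) at 9268 FPKM, atp4 (ATMG00640) at 7916, rps3 (ATMG00090) at 5695 and nad4L (ATMG00650) at 5245. The lowest were ccmC (ATMG00900), a cytochrome c maturation protein, at 2.01 FPKM, the ribosomal protein gene rps7 (ATMG01270) at 5.95 and atp6 (ATMG01170), the proton channel subunit of the ATP synthase, at 9.38. The gene cob (ATMG00220), for cytochrome b, which is the mitochondrially encoded subunit of complex III, stood at 43.3 FPKM.

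The genes with high FPKM were mostly those with a small share of their sequence also present in the nuclear genome, where a large piece of the mitochondrial genome is inserted on chromosome 2. Among the 30 named genes, 8 had under 40% of their 50-base runs in the nuclear chromosomes of TAIR10.1, and their FPKM lay between 301.9 and 9268 with a median of 4062. For the 15 genes with all runs in the nucleus, FPKM lay between 2.01 and 567 with a median of 117. Between 40% and 90% were nad1 and nad5, at 2722 and 1239 FPKM, and 5 genes from 90% upwards but short of all had a median of 114. Some runs also occur more than once within the mitochondrial genome itself, at 64.2% for atp6, 34.6% for rpl16, 34.1% for atp9 and 25.1% for cox2. How the counting treated reads that match more than 1 place is not given in the sources used here. The part of the nuclear copies and of these repeats in the levels was not tested. The mitochondrial sequence in TAIR10.1 may also differ from that of the TAIR10 build named in the submitters' processing notes. The start of the coding sequence is shown for cob and nad3, the members with the largest rises in gPLT2C212S at 5 nM, each beside its chromosome 2 copy, with the start codon in capitals (RefSeq, TAIR10.1, coding strand, first 60 bases):
cob in the mitochondrion: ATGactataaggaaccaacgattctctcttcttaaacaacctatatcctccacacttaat
cob copy in AT2G07727: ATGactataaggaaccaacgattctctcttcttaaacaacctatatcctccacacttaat
nad3 in the mitochondrion: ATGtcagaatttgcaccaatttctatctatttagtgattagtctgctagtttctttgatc
nad3 copy in AT2G07751: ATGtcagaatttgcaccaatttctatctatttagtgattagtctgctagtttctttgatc

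Over their whole length, 1182 bases of cob and 357 bases of nad3 were identical between the mitochondrion and these copies, with 0 mismatches. The copy loci held counts of their own. AT2G07751 had a mean of 3634 counts per library and AT2G07727 had 257. The members' values below are therefore counts at the mitochondrial locus, not all counts of that sequence.

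**Figure D1:**
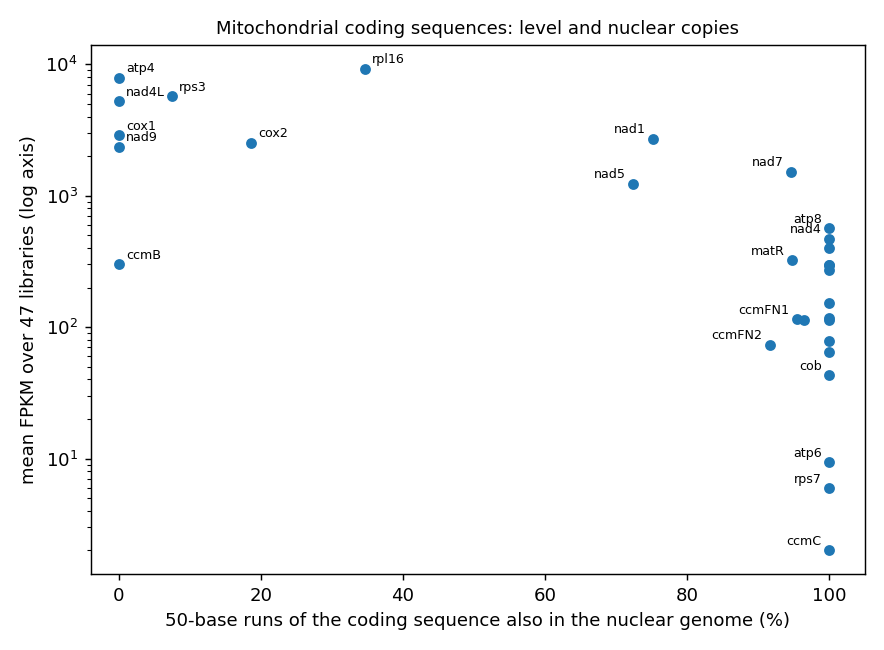
Mean FPKM over the 47 libraries (log axis) against the percentage of each coding sequence's 50-base runs that also occur in the nuclear genome, with 1 point for each of the 30 named mitochondrial genes. The 8 genes under 40% lie between 301.9 and 9268 FPKM, and the 15 genes at the right edge between 2.01 and 567.

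The summed share of the 44 members was then compared between groups as a percentage of the counts outside ATMG00020 and ATMG01390. It ranged from 2.28% to 6.70% over the libraries, with a median of 4.02%. In plt2 it was 3.30% ± 0.639 (SD, n = 5) with mock, 3.96% ± 0.936 (n = 5) at 0.3 nM and 3.61% ± 0.762 (n = 5) at 5 nM. In gPLT2 it was 3.87% ± 0.949 (n = 5), 4.33% ± 0.624 (n = 5) and 3.97% ± 1.05 (n = 6). In these 2 genotypes the groups overlapped at every dose.

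In gPLT2C212S the share was 5.02% ± 0.699 (n = 5) with mock, 3.56% ± 1.29 (n = 5) at 0.3 nM and 5.19% ± 1.21 (n = 6) at 5 nM. With mock, its lowest library (4.10%) lay above the highest plt2 library (4.08%), and the ratio of the means was 1.52. With this denominator it was the only pair of groups, of 15, that did not overlap. At 0.3 nM the log2 ratio to mock within gPLT2C212S was -0.49, and the range (2.28% to 5.29%) overlapped that of mock (4.10% to 6.07%). At 5 nM the gPLT2C212S mean was 1.44 times that of plt2 and 1.31 times that of gPLT2, with overlapping ranges in both.

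**Figure D2:**
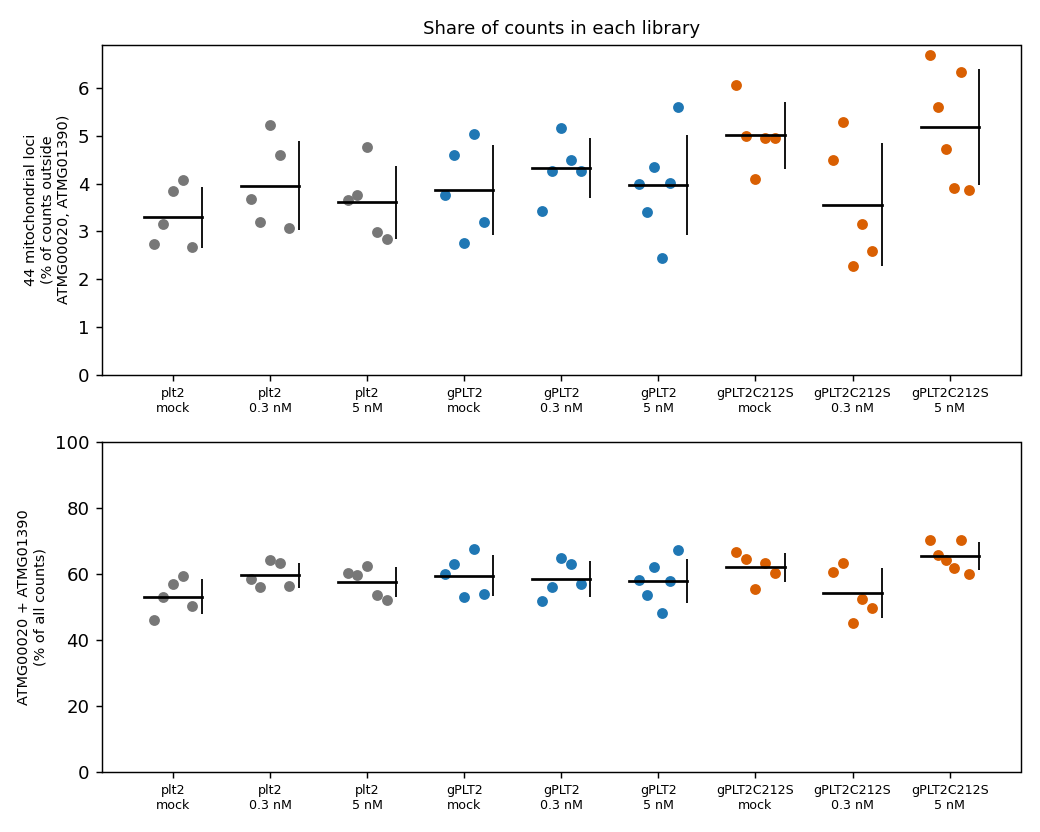
Upper panel, the share of the 44 mitochondrial loci in each library (percent of counts outside ATMG00020 and ATMG01390). Lower panel, the share of those 2 loci (percent of all counts). Points are libraries, horizontal bars are group means and vertical bars are 1 SD. The 5 gPLT2C212S mock libraries lie at 4.10% to 6.07% and the 5 plt2 mock libraries at 2.67% to 4.08%.

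The summed share moved with that of ATMG00020 and ATMG01390. Those 2 loci took a mean of 53.1% of all counts in plt2 mock and 62.0% in gPLT2C212S mock, and 54.2% and 65.4% in gPLT2C212S at 0.3 nM and 5 nM. Per 100 counts of the 2 loci, the members held 2.38 to 3.37 counts over all libraries. As a share of all counts, the members ranged from 1.25% to 2.03%. On that denominator the log2 ratio of gPLT2C212S to plt2 with mock was 0.31, in place of 0.60. The gPLT2C212S mock libraries, at 1.77% to 2.03%, there lay above those of plt2 mock (1.33% to 1.66%) and of gPLT2 mock (1.30% to 1.70%). The plastid loci, as a share of the counts outside the 2 loci, were at a mean of 4.41% in plt2 mock and at 5.45%, 3.81% and 5.50% in gPLT2C212S at mock, 0.3 nM and 5 nM. Their part in the members' values was not tested. In bulk samples, fewer cells of a type and less RNA per cell cannot be told apart.

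**Figure D3:**
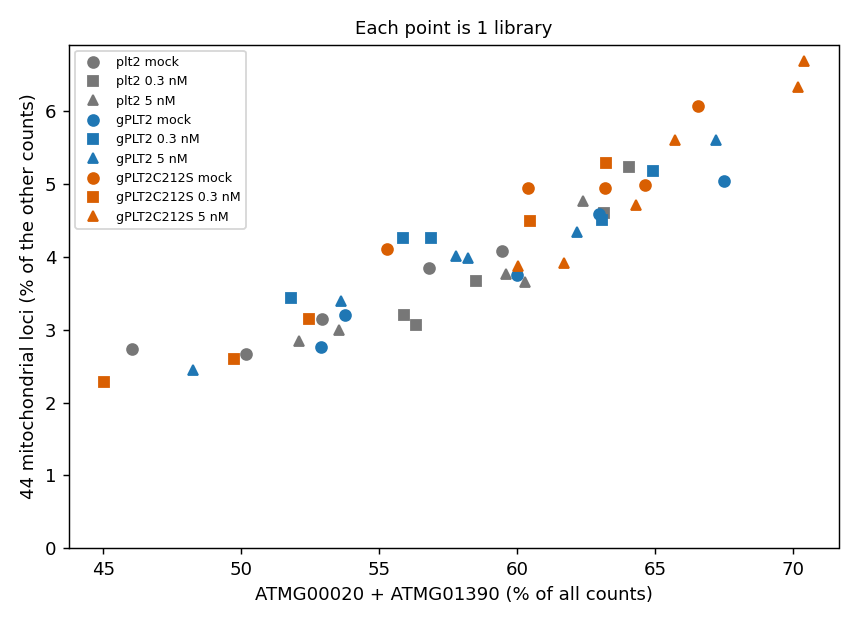
Share of the 44 mitochondrial loci (percent of counts outside the 2 most abundant loci) against the share of ATMG00020 and ATMG01390 (percent of all counts), with 1 point per library, coloured by genotype and shaped by dose. Libraries with a larger share of the 2 loci also have a larger share of the members, from 2.28% where the 2 loci take 45.0% to 6.70% where they take 70.4%. The 2 axes share a library and the denominator of the vertical axis leaves out the loci of the horizontal one.

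Each member was tested for its own change with edgeR's quasi-likelihood test, fitted over all loci, and called at a Benjamini-Hochberg adjusted p under 0.05. Between 37 and 41 members passed the filter on low counts in a comparison. ATMG00700, ATMG00800 and ccmC (ATMG00900) passed in none, and because the filter acts on level, the members that passed are the more abundant ones. Several comparisons share groups, so their values are given side by side. Scaling to the members' own sum takes out any change that the members share, so a call lost there leaves such a change untested. The share of ATMG00020 and ATMG01390, used as a covariate in some fits, is itself mitochondrial, and its mean differed between groups. Adjusting for it also takes out change that the members share with those 2 loci. Calls lost or turned there cannot decide on such change. In plt2, which lacks transgenic PLT2, few members were called after RGF1. In plt2 at 0.3 nM 0 of 39 members were called, with 15 at an unadjusted p under 0.05 and 0 by DESeq2, and 0.0504% of all loci were called. All 39 values were above 0, with a median of 0.36 beside -0.0048 over all loci, and 30 of 39 were above 0 with total-count scaling, 29 scaled to the members' own sum and 16 with the share of ATMG00020 and ATMG01390 as a covariate. In plt2 at 5 nM 1 of 37 was called, ATMG00380, a locus with a 72-base exon that rose by a log2 fold change of 0.70 (SE 0.21, adjusted p = 0.0442). The background there was 9.44%. That call was lost in 7 of 10 fits that left out 1 library, namely mock replicate 1, 2 or 3 or 5 nM replicate 1, 2, 3 or 4, and 2 members were called without 5 nM replicate 5. With the share of ATMG00020 and ATMG01390 as a covariate 5 members were lower and 0 higher.

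In gPLT2 few members were called although many loci were. At 0.3 nM 0 of 39 were called by edgeR and 0 by DESeq2, with 1 at an unadjusted p under 0.05, against 15.2% of all loci. At 5 nM 1 of 40 was called, ATMG00250, a locus with a 74-base exon and 2 to 34 counts per library, which fell by 0.79 on the log2 scale (adjusted p = 0.0436) and is named here after its value was seen. The background was 47.5% of all loci. The median log2 fold change of the members was -0.01 at 0.3 nM and -0.03 at 5 nM. The count of 1 at 5 nM was 0 without mock replicate 1 or 4 or 5 nM replicate 2, 3 or 5, and 3 without mock replicate 3 or 5 nM replicate 6. Without mock replicate 2 or 5 nM replicate 4 the 1 call was higher, and with the share of ATMG00020 and ATMG01390 as a covariate 4 were higher and 1 lower. The count of 0 at 0.3 nM was 1 without mock replicate 2 or 0.3 nM replicate 5.

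In gPLT2C212S at 0.3 nM, 13 of 40 members fell and 1 rose, where 22.9% of all loci were called and 11.1% were lower. By role, the members that fell were 3 of 4 tested for cytochrome c maturation, both matR and mttB, 2 of 6 ribosomal protein loci, and 1 each of 9 for complex I, 5 for the ATP synthase and 3 for complex IV. The other 3 have no role in the sources. The median over the 40 was -0.52, beside 0.00 over all loci, and 38 of 40 values were below 0. The 2 most abundant loci had a median of -0.40 and were not called, and 44 of 102 plastid loci fell.

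The lowest value among members of at least 20 counts was that of ccmB (ATMG00110), for a membrane subunit of the transporter that serves cytochrome c maturation. Its CPM was 344, 255, 250, 233 and 248 in the 5 mock libraries and 205, 272, 100, 131 and 85.6 in the 5 libraries at 0.3 nM. Replicate 2 at 0.3 nM lay within the mock range and the other 4 lay below it. The log2 fold change was -0.77 (SE 0.23, adjusted p = 0.0198), and it was no longer called by DESeq2 (adjusted p = 0.0826), scaled to the members' own sum, with the share of the 2 abundant loci as a covariate, or without replicate 3, 4 or 5 at 0.3 nM.

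ATMG00180, next in order, fell by 0.72 on the log2 scale (SE 0.19, adjusted p = 0.00977) and kept its call in all 10 fits that left out 1 library. It lost it with total-count scaling (-0.49), scaled to the members' own sum (-0.21) and with the covariate (-0.23). The maturase gene matR (ATMG00520), whose protein acts in intron splicing, was at 997, 755, 755, 898 and 783 CPM with mock and at 706, 876, 382, 399 and 432 CPM at 0.3 nM. Its log2 fold change was -0.60 (SE 0.20, adjusted p = 0.0324). Replicates 3, 4 and 5 at 0.3 nM were the lowest for both genes.

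The same 3 replicates were also the lowest for the abundant members, which were not called. At 0.3 nM rps3 (ATMG00090) was at 10658, 13738, 5859, 7147 and 5336 CPM, beside 15335, 10969, 9915, 12067 and 11934 CPM with mock. The groups overlapped and the log2 fold change was -0.51 (adjusted p = 0.137). For atp4 (ATMG00640) the values were 5547, 6581, 2289, 3725 and 2511 CPM at 0.3 nM and 6266, 5303, 5334, 5179 and 6521 CPM with mock, a log2 fold change of -0.48 (adjusted p = 0.158).

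The count of 14 depended on single libraries. It was 3, 3 and 2 without replicate 3, 4 or 5 at 0.3 nM, 32 without replicate 2 at 0.3 nM, and 8, 9 and 8 without mock replicate 1, 2 or 4. It was 1 when the share of ATMG00020 and ATMG01390 entered the fit as a covariate, and that 1 was higher, with a members' median of -0.02. It was 3 with total-count scaling, with 1 higher and 2 lower, which moved the median of all loci to 0.26. When libraries were scaled to the members' own sum it was 2, both higher. The members' median minus that of all loci was -0.52 with TMM scaling and -0.58 with total-count scaling.

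At 5 nM, gPLT2C212S members went both ways around a median of 0.03. The test called 6 members higher and 1 lower of 41, against 40.2% of all loci in either direction and 18.7% higher. Those higher were cob, nad3, ATMG00380, nad1 (log2 fold change 0.46), cox2 (0.43) and cox1 (0.42). The one lower was nad6 (ATMG00270), a membrane subunit of complex I, at -0.58 (SE 0.18, adjusted p = 0.0123), a call lost by DESeq2 (adjusted p = 0.0731) and without mock replicate 1. Among the abundant of these, nad1 (ATMG01275) was at 3529, 3245, 2143, 2793 and 2683 CPM with mock and at 3199, 3659 and 5261 CPM as the lowest, median and highest at 5 nM. cox1 (ATMG01360), the core subunit of complex IV, was at 4807, 4767, 3766, 4009 and 4601 CPM with mock and at 4570, 5481 and 8155 CPM at 5 nM. For both genes the 5 nM range overlapped that of mock. The count of 7 was 3 without 5 nM replicate 1 and 4 without mock replicate 4 or 5, with 2 higher and 2 lower without mock replicate 4. Total-count scaling gave 3 higher and 4 lower, and the share of the 2 abundant loci as a covariate gave 2 higher and 17 lower.

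The member with the largest rise was cob (ATMG00220). Its CPM was 38.2, 46.0, 24.7, 36.0 and 30.0 in the 5 gPLT2C212S mock libraries, and 66.0, 58.5, 29.4, 55.7 and 49.1 at 0.3 nM. At 5 nM the lowest, median and highest of the 6 libraries were 68.5, 91.1 and 123 CPM. All libraries at 5 nM lay above all mock libraries, and replicate 3 at 0.3 nM lay within the mock range.

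Against mock, cob (ATMG00220) rose at 0.3 nM by 0.54 on the log2 scale (SE 0.19, adjusted p = 0.0427). At 5 nM it rose by 1.37 (SE 0.15, with an adjusted p of 7.17e-08). The 5 nM call was kept in all 19 alternative fits, with log2 fold changes of 1.20 to 1.49 and adjusted p between 1.02e-25 and 0.000198. The 0.3 nM call was lost in 7 of 10 fits without 1 library, namely mock replicate 3, 4 or 5 and 0.3 nM replicate 1, 2, 4 or 5. Scaled to the members' summed count, cob still rose, by 1.08 at 0.3 nM (adjusted p = 0.00597) and by 1.36 at 5 nM (adjusted p = 1.77e-06). With TMM scaling, the log2 fold change of cob in plt2 was 0.76 at 0.3 nM and 0.75 at 5 nM. In gPLT2 it was -0.02 and 0.24, and cob was called in neither genotype. The response of cob to 0.3 nM differed by -0.23 between gPLT2C212S and plt2, which was not called. Against gPLT2 it differed by 0.56, which was not called with TMM scaling but was when scaled to the members' own sum. A difference that is not called does not show equal responses, so whether the 0.3 nM rise was particular to gPLT2C212S is not decided.

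For the nuclear copy that is identical to cob (ATMG00220) the values differed from those of cob. AT2G07727 was at 89.5 ± 21.2 CPM (SD, n = 5) with mock, 59.3 ± 24.5 (n = 5) at 0.3 nM and 82.4 ± 20.4 (n = 6) at 5 nM. Its log2 fold change was -0.63 (adjusted p = 0.0440) at 0.3 nM and -0.15 (adjusted p = 0.467) at 5 nM. Reads that match both loci could be counted at either, and that was not tested.

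The cob response at 5 nM was larger in gPLT2C212S than in gPLT2, with a difference in log2 fold change of 1.13 (SE 0.32, adjusted p = 0.0330). In the other genotypes cob (ATMG00220) was at 32.96 ± 10.3 CPM (n = 5) in plt2 mock and 54.3 ± 22.1 (n = 5) at 5 nM, and at 41.8 ± 18.4 (n = 5) in gPLT2 mock and 50.9 ± 16.3 (n = 6) at 5 nM. Against plt2 the difference in response was 0.67 (adjusted p = 0.206). The call against gPLT2 was lost by DESeq2. It was also lost without gPLT2 mock replicate 1 or 4, gPLT2 5 nM replicate 1, 2 or 4, gPLT2C212S mock replicate 3, 4 or 5, or gPLT2C212S 5 nM replicate 5. This was the only member of 41 whose response to 5 nM differed between gPLT2C212S and gPLT2, where 4.82% of all loci did. Between gPLT2C212S and plt2, and between gPLT2 and plt2, 0 of 41 did, by edgeR and by DESeq2, with 0 at an unadjusted p under 0.05 and backgrounds of 12.4% and 9.77%.

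The second rise at 5 nM was that of nad3 (ATMG00990), a membrane subunit of complex I, whose counts differed widely between libraries in every group. The counts of the 47 libraries were cut at their widest gap on the log2 scale (0.76), so by construction none lie within it. They were 9 to 39 in 18 libraries, called low, and 66 to 227 in 29, called high. The high libraries were 2 of 5 in plt2 mock, gPLT2 mock and gPLT2C212S mock, 3 of 5 and 4 of 5 in plt2 at 0.3 nM and 5 nM, 4 of 5 and 3 of 6 in gPLT2, and 4 of 5 and 5 of 6 in gPLT2C212S. Its share of the members' counts had a coefficient of variation of 67.1% over the libraries, and that of cob (ATMG00220) 40.2%. For the first 10 members it was 7.34% (nad7, ATMG00510) to 14.4% (atp4, ATMG00640).

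In gPLT2C212S, nad3 (ATMG00990) was at 10.03, 6.78, 42.2, 8.79 and 45.7 CPM with mock, and at 6.62, 58.5 and 83.4 CPM as the lowest, median and highest at 5 nM. The groups overlapped. The log2 fold change was 1.19 (SE 0.42, adjusted p = 0.0250), and it was no longer called by DESeq2 or without mock replicate 2 or 4 or 5 nM replicate 1 or 2. The copy locus AT2G07751 held 1144 ± 186 CPM (n = 5) with mock and 1118 ± 262 (n = 6) at 5 nM.

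**Figure D4:**
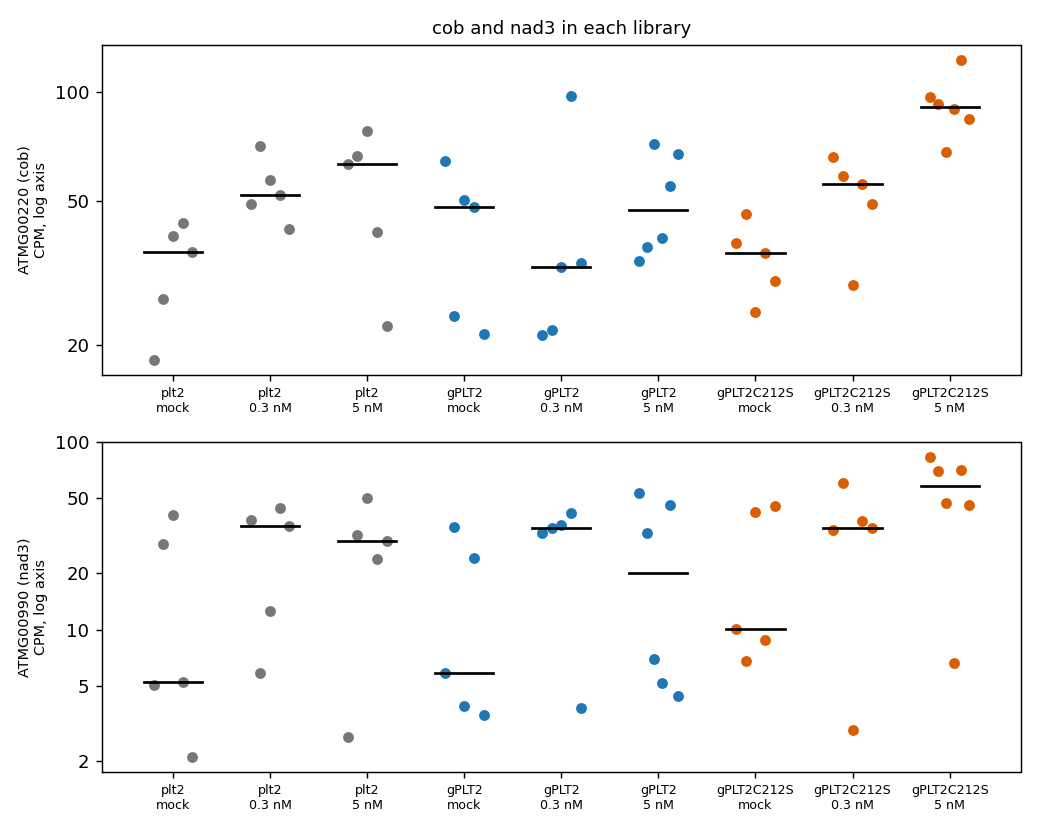
CPM of cob (ATMG00220, upper panel) and nad3 (ATMG00990, lower panel) in each library on log axes, with 1 point per library and a bar at the group median. For cob the gPLT2C212S libraries at 5 nM (68.5 to 123 CPM) lie above those with mock (24.7 to 46.0 CPM). For nad3 every group has libraries below and above the widest gap in its counts.

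Between genotypes, most calls of members came from gPLT2C212S against plt2. With mock, 22 of 41 members were higher in gPLT2C212S and 0 lower, where 18.7% of all loci were called in either direction and 6.83% were higher. All 41 values were above 0, with a median of 0.57 beside 0.00 over all loci. By role the members called were all 4 tested for cytochrome c maturation, matR and mttB, 5 of 9 for complex I, 3 of 7 ribosomal protein loci, 2 of 5 for the ATP synthase, 0 of 3 for complex IV and 6 without a role. cob of complex III was not called. In the same comparison the 2 abundant loci had a median of 0.41 and were not called, and 16 of 104 plastid loci and 7 of 29 chromosome 2 copies were higher.

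matR (ATMG00520) was at 425, 513, 496, 600 and 442 CPM in the plt2 mock libraries, all below the 5 gPLT2C212S mock libraries given above. Its log2 fold change of 0.77 (SE 0.14) had the lowest adjusted p of the members, 0.000923. The largest differences among members of at least 20 counts were those of ATMG01375 and ATMG01330, both with exons of under 100 bases. The first was higher by 0.91 (SE 0.17, adjusted p = 0.00156) and the second by 0.84 (SE 0.19, adjusted p = 0.00465). Both calls were lost with the covariate and scaled to the members' own sum. cox1 (ATMG01360), at 4390 ± 473 CPM (n = 5) in gPLT2C212S and 4082 ± 1037 (n = 5) in plt2, differed by 0.12 (adjusted p = 0.720).

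At 5 nM, 27 of 39 members were higher in gPLT2C212S than in plt2 and 0 lower, against a background of 45.0% in either direction and 21.8% higher. These were 7 of 9 for complex I, 5 of 7 ribosomal protein loci, all 4 for cytochrome c maturation, both matR and mttB, 2 of 3 for complex IV, 2 of 5 for the ATP synthase, cob, and 4 without a role. The largest among those called were nad3 (ATMG00990) at 0.94 (SE 0.38, adjusted p = 0.0429) and ATMG01330 at 0.85 (SE 0.15, adjusted p = 2.46e-05). nad1 (ATMG01275) was at 2514 ± 467 CPM (n = 5) in plt2 and 4033 ± 948 (n = 6) in gPLT2C212S, a log2 fold change of 0.67 (adjusted p = 0.000779). The nad3 call was lost by DESeq2 and in 7 of 11 fits without 1 library. Those were plt2 replicates 1, 2, 4 and 5 and gPLT2C212S replicates 1, 2 and 5.

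Both counts moved with single libraries and with the scaling. With mock, 22 became 12 without plt2 replicate 1, and 14, 13 and 14 without gPLT2C212S replicate 1, 2 or 4. At 5 nM, 27 became 16 without plt2 replicate 5 and 17 without gPLT2C212S replicate 1 or 5. With total-count scaling the counts were 8 and 7, and the median of all loci moved to -0.20 and -0.24. With the share of the 2 abundant loci as a covariate they were 1, which was higher, and 5, which were all lower, and the members' medians were 0.08 and -0.08. Scaled to the members' own sum, 0 of 41 and 0 of 39 were called by edgeR, each with 1 at an unadjusted p under 0.05. There 40.1% and 41.1% of all loci were called, and the median of all loci moved to -0.53 and -0.46. These shares of all loci are thus no background for the members. DESeq2, with its own size factors, called 26 and 20.

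At 0.3 nM the called members were lower. 5 of 40 members were lower in gPLT2C212S than in plt2 and 0 higher, with 46.4% of all loci called and 24.2% lower. They were cox1, mttB, ATMG00560, ATMG00730 and ATMG00250. The lowest of at least 20 counts were ATMG00730 at -0.83 (SE 0.22, adjusted p = 0.00412) and ATMG00560 at -0.68 (SE 0.20, adjusted p = 0.00724). The median was -0.23, with the covariate 0.08, and 0.04 with total-count scaling, where that of all loci was 0.33. In this comparison 81 of 102 plastid loci were lower. The count was 8 without plt2 replicate 2 or gPLT2C212S replicate 1 and 16 without gPLT2C212S replicate 2. Total-count scaling gave 1 higher and 2 lower, and the covariate gave 4 higher and 3 lower. The call of ATMG00560 was lost with total-count scaling.

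Between gPLT2 and plt2 few members were called. 0 of 40 members were called with mock and 0 of 40 at 5 nM, by edgeR and by DESeq2, with 4 and 1 at an unadjusted p under 0.05 and backgrounds of 2.53% and 38.5%. At 0.3 nM 1 of 39 was called, ATMG00560, lower by a log2 fold change of -0.64 (SE 0.19, adjusted p = 0.0123), against 31.3%. That call was lost with total-count scaling, which gave 2 higher and 0 lower. The members' median log2 fold change was 0.28 with mock, 0.01 at 0.3 nM and 0.06 at 5 nM. The count at 0.3 nM was 2 without plt2 replicate 1 or 2 or gPLT2 replicate 1 or 3, 3 without plt2 replicate 3 and 4 without gPLT2 replicate 4. At 5 nM it was 1 without plt2 replicate 3 or gPLT2 replicate 2 and 2 without gPLT2 replicate 4.

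gPLT2C212S against gPLT2 gave 2 of 40 higher with mock, against 8.77% of all loci. These were the ribosomal protein gene rps4 (ATMG00290) at 0.63 (SE 0.14, adjusted p = 0.00700) and ATMG01340, which has a 73-base exon. Of the 40 values with mock, 39 were above 0, with a median of 0.34 beside 0.01 over all loci, and 16 had an unadjusted p under 0.05. The rps4 call was lost with total-count scaling. Only 1 was called without gPLT2 replicate 1, 3 or 5 or gPLT2C212S replicate 2 or 4. At 0.3 nM 1 of 40 was lower, ATMG00730 at -0.82 (SE 0.21, adjusted p = 0.0210), against 7.38%. None was called without gPLT2 replicate 3 or gPLT2C212S replicate 3, 4 or 5, and 3 were without gPLT2 replicate 4 or gPLT2C212S replicate 2. At 5 nM 3 of 40 were higher, against 4.27%. They were cob (ATMG00220) at 0.90 (SE 0.17, adjusted p = 0.00246), nad1 (ATMG01275) at 0.68 (SE 0.17, adjusted p = 0.0259) and ATMG00380. The nad1 call was lost with total-count scaling (0.35), scaled to the members' own sum (0.24), with the covariate (0.21), and without gPLT2 replicate 5 or gPLT2C212S replicate 1 or 5. All 40 values were above 0 at 5 nM, with a median of 0.42 and 24 at an unadjusted p under 0.05, while the 2 abundant loci had a median of 0.49. With the covariate the members' median was -0.07. The count was 23 without gPLT2 replicate 6, 5 without gPLT2C212S replicate 4 and 7 without gPLT2C212S replicate 6. Total-count scaling moved the median of all loci to -0.34 and that of the members to 0.10.

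The response to 0.3 nM differed between gPLT2C212S and plt2 for 12 of 41 members, all lower in gPLT2C212S, where 11.0% of all loci differed and 6.15% were lower. The median difference was -0.82 beside -0.01 over all loci, and all 41 were below 0. The members were all 4 for cytochrome c maturation, matR and mttB, rps4 and ATMG00560, nad4, atp8, ATMG01380 and ATMG00250. The lowest of at least 20 counts were ATMG00560 at -1.15 (SE 0.31, adjusted p = 0.0161) and ccmB (ATMG00110) at -1.09 (SE 0.32, adjusted p = 0.0250). Both calls were lost with total-count scaling, scaled to the members' own sum and with the covariate, and that of ccmB also without plt2 mock replicate 1, gPLT2C212S mock replicate 1 or gPLT2C212S 0.3 nM replicate 3. The 2 abundant loci had a median difference of -0.81 and 66 of 104 plastid loci were lower. The count was 7 without gPLT2C212S 0.3 nM replicate 3, 19 without replicate 1 and 28 without replicate 2 of that group, and 0 with the share of the 2 abundant loci as a covariate, where the members' median was 0.06. With total-count scaling it was 1, the members' median was -0.35 and that of all loci 0.52.

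Against gPLT2, 0 of 41 members differed in this response, with 12 at an unadjusted p under 0.05 and 0 by DESeq2, and 1.99% of all loci did. Between gPLT2 and plt2, 0 of 41 differed by edgeR and 1 by DESeq2, with 5 at an unadjusted p under 0.05, against 5.99% of all loci. The first count was 2 without gPLT2C212S 0.3 nM replicate 2. The second was 3 without gPLT2 mock replicate 3, 2 without plt2 mock replicate 3 or gPLT2 mock replicate 5, and 1 without plt2 0.3 nM replicate 1 or 2 or gPLT2 0.3 nM replicate 1, 3 or 4.

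Scaled to their own sum, which takes out change that the members share, few members were called. This scaling moved the median of all loci to -0.16 in gPLT2 and 0.61 in gPLT2C212S at 0.3 nM. Where that median moved, the share of all loci called is no background for the members. The adjusted p runs over all loci and so also depends on that move. Of 15 pairwise comparisons, 3 held any call. In gPLT2 at 0.3 nM 1 of 39 was called, where 6.10% of all loci were: nad3 (ATMG00990) rose by 1.09 (adjusted p = 0.00316). Its counts were split between libraries as described above, with 2 of 5 high with mock and 4 of 5 at 0.3 nM. The counts overlapped, at 14 to 120 and 15 to 147, and the same split limits the nad3 values in gPLT2C212S below. In gPLT2C212S at 0.3 nM 2 of 40 were called, against 33.7%, and both cob and nad3 rose. At 5 nM 4 of 41 were called, against 19.9%: cob, nad3 and ATMG00380 rose and nad6 (ATMG00270) fell by 0.62 on the log2 scale (adjusted p = 0.0374). Of the differences between genotypes in the response to 0.3 nM, 1 of 41 was called for gPLT2C212S minus plt2, namely ATMG00250 at -1.56 (SE 0.55, adjusted p = 0.0262), against 36.6% of all loci. For gPLT2C212S minus gPLT2 1 of 41 was called, cob (ATMG00220) at 1.31 (SE 0.43, adjusted p = 0.0350), against 14.7%. In these 2 fits the median of all loci moved to 0.89 and 0.77. The adjusted p of both members thus rests in part on the move of other loci. With TMM scaling 1.99% of all loci were called for gPLT2C212S minus gPLT2, and the cob difference of 0.56 was not. ATMG00250 had a mean of only 13.0 counts. The abundant rps3 (ATMG00090), cox1 (ATMG01360), atp4 (ATMG00640) and nad1 (ATMG01275) were not called on that scale in any of the 15.

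**Figure D5:**
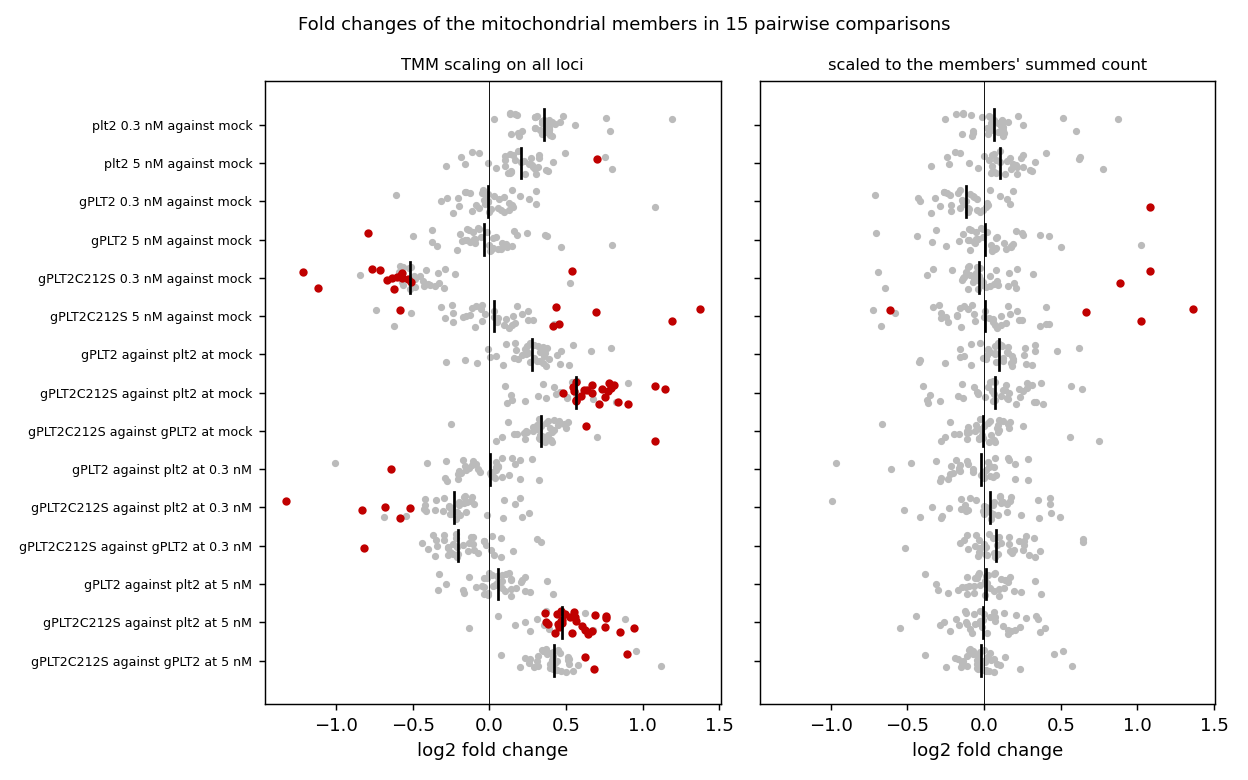
Log2 fold changes of the mitochondrial members that passed the filter in the 15 pairwise comparisons, with all-locus TMM scaling (left) and with libraries scaled to the members' summed count (right). Each point is 1 member, red where the adjusted p was under 0.05, and black bars are medians. On the left the medians of gPLT2C212S against plt2 lie at 0.57 with mock and 0.48 at 5 nM, and on the right at 0.07 and -0.01. The scaling on the right takes out change that the members share.

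Genes of the same organelle that are encoded in the nucleus were counted beside the members. Of 24 nuclear genes for respiratory chain and ATP synthase subunits, 3 were lower and 0 higher in gPLT2C212S than in plt2 with mock, where 18.7% of all loci were called. At 5 nM 9 were lower and 0 higher, against 45.0%, and at 0.3 nM 4 were lower and 3 higher, against 46.4%. In gPLT2C212S at 0.3 nM 1 of 24 rose and 0 fell, against 22.9%, and at 5 nM 4 fell and 0 rose, against 40.2%. In gPLT2 at 5 nM 3 rose and 3 fell, against 47.5%. With both directions counted together, each of these shares was below that of all loci. That does not hold for each direction alone. At 5 nM all 9 calls against plt2 were lower, while 21.8% of all loci were higher out of the 45.0% called. In gPLT2C212S against gPLT2 at 5 nM 2 of 24 were lower and 0 higher, a share above the 4.27% of all loci.

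Of 7 nuclear genes for mitochondrial transcription, replication and RNA turnover, 6 rose in gPLT2 at 5 nM, where 47.5% of all loci and 1 of 40 members were called. In gPLT2C212S 0 of 7 changed at 0.3 nM and 2 rose at 5 nM, against 22.9% and 40.2% of all loci. Compared with plt2, 4 of 7 were higher in gPLT2C212S at 0.3 nM and 4 at 5 nM, against 46.4% and 45.0%, and 1 with mock, against 18.7%.

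RPOTm (AT1G68990), a mitochondrial RNA polymerase, rose in gPLT2 at 5 nM by 0.49 (SE 0.13, adjusted p = 0.00342), and RPOTmp (AT5G15700), a polymerase of mitochondria and plastids, by 0.69 (SE 0.14, adjusted p = 0.000487). In gPLT2C212S at 5 nM they were at 0.17 (adjusted p = 0.201) and 0.25 (adjusted p = 0.106). AOX1A (AT3G22370), the alternative oxidase that bypasses complexes III and IV and is induced when they are impaired, rose in gPLT2C212S at 0.3 nM by 0.74 (SE 0.13, adjusted p = 0.000363). It was at 0.28 (adjusted p = 0.0974) there at 5 nM. The difference in AOX1A response to 0.3 nM between gPLT2C212S and gPLT2 was 0.54 (adjusted p = 0.0875).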

How the data were processed

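The 47 libraries were grouped by genotype and RGF1 dose from the labels, and every column of the tables was matched to a sample (0 unmatched). The authors deposited raw counts per locus, and FPKM values (counts per length and depth), which were used only to compare levels between genes and to derive exon lengths. Per the submitters' processing notes, HISAT2 2.1.0, featureCounts of Subread 2.0.3, DESeq 1.34.0 and TAIR10 were named. The strand setting and the treatment of reads that match several places are not given in the sources used here, so overlapping loci and copies cannot be separated. The 44 members and all gene lists were chosen with earlier results of these data known.

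Tests used edgeR 4.0.16 (quasi-likelihood, R 4.3.3, limma 3.58.1) on all loci that passed filterByExpr (minimum count 10), with TMM scaling, only the groups compared in a fit (4 groups for a difference in response), and Benjamini-Hochberg adjustment over all loci tested, called under 0.05. There were 15 pairwise and 6 difference-of-response fits. DESeq2 1.42.0 was an alternative. Others were no filter, total-count scaling, scaling to the members' summed count, the share of the 2 abundant loci as a covariate, all 47 libraries in a single fit, removal of the 2 loci, replicate number as a block, and leaving out each library. The scripts were tested on simulated data. The most abundant member of each role list was named, with the 2 highest and the 2 lowest called members of at least 20 mean counts in each comparison. No 2 libraries of a group agreed within sampling noise, with a chi-square per degree of freedom of at least 3.19.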

Additional observations from a re-analysis of the deposited data

Results flagged for a closer look

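Of 153 group values examined for a library far from the others, 5 were set apart, and chance alone sets apart about 1 in 20. They were ATMG01375 at 52.0 CPM in 1 plt2 mock library, cob (ATMG00220) at 97.7 CPM and nad3 (ATMG00990) at 3.80 CPM, each in 1 gPLT2 library at 0.3 nM, and ccmB (ATMG00110) at 344 CPM and ATMG00730 at 81.5 CPM, each in 1 gPLT2C212S mock library.

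The response to RGF1 differed between genotypes by a test of the difference itself in 2 comparisons. The response to 0.3 nM was lower in gPLT2C212S than in plt2 for 12 of 41 members by edgeR, among them ATMG00560 at -1.15 and ccmB (ATMG00110) at -1.09. Of all loci 11.0% differed and 6.15% were lower. That count fell with total-count scaling and with the covariate, as given above. The response to 5 nM was higher in gPLT2C212S than in gPLT2 for 1 of 41 members, cob (ATMG00220), at 1.13, where 4.82% of all loci differed. The cob call was lost by DESeq2 and in several fits without 1 library.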

How the results depend on the processing

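The direction of the called members turned under several alternatives. Of these, scaling to the members' sum takes out change that the members share, and the covariate takes out change shared with the 2 abundant loci. Turns under them cannot decide on such change. With the share of the 2 abundant loci as a covariate, gPLT2C212S against plt2 at 5 nM gave 0 higher and 5 lower, gPLT2C212S 5 nM gave 2 and 17, plt2 5 nM 0 and 5, gPLT2 5 nM 4 and 1, gPLT2C212S against plt2 at 0.3 nM 4 and 3, and the 5 nM response of gPLT2C212S against gPLT2 1 and 3. In gPLT2C212S 0.3 nM the covariate and scaling to the members' sum left calls that were all higher. Total-count scaling gave 3 higher and 4 lower in gPLT2C212S 5 nM and 2 and 0 for gPLT2 against plt2 at 0.3 nM. Without a filter gPLT2 5 nM gave 3 and 2, and without mock replicate 2 or 5 nM replicate 4 it gave 1 and 0. The rise of cob in gPLT2C212S at 5 nM kept its call in all 19 alternatives. The causes of the changes below were not tested, and the number of counts limits the members of under 20 counts. In the order plt2 0.3 nM and 5 nM, gPLT2 0.3 nM and 5 nM and gPLT2C212S 0.3 nM against mock, the counts without a filter were 3, 3, 1, 5 and 29. Between genotypes without a filter the counts of gPLT2 against plt2 were 1 with mock, 3 at 0.3 nM and 2 at 5 nM. Those of gPLT2C212S against gPLT2 were 7, 3 and 20, and gPLT2C212S had 10 against plt2 at 0.3 nM. For differences in response without a filter they were 4, 30 and 6 at 0.3 nM (gPLT2 minus plt2, gPLT2C212S minus plt2, gPLT2C212S minus gPLT2) and 1 and 1 at 5 nM (the first 2 of these).

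Total-count scaling gave 0 in plt2 5 nM, 1 in gPLT2 0.3 nM, 0 in gPLT2 5 nM and 3 in gPLT2C212S 0.3 nM. Between genotypes it gave 8 (gPLT2C212S against plt2, mock), 0 (against gPLT2, mock), 2 (gPLT2 against plt2, 0.3 nM), 3 (gPLT2C212S against plt2, 0.3 nM), 1 (gPLT2 against plt2, 5 nM), 7 (gPLT2C212S against plt2, 5 nM) and 1 (against gPLT2, 5 nM), and for responses 1 (0.3 nM, against plt2) and 0 (5 nM, against gPLT2). Scaling to the members' sum gave 1 in gPLT2 0.3 nM, 2 in gPLT2C212S 0.3 nM, 4 in gPLT2C212S 5 nM, 1 and 1 for the gPLT2C212S responses to 0.3 nM against plt2 and gPLT2, and 0 in every other comparison that had a call. The covariate gave 5 in plt2 5 nM, 2 and 5 in gPLT2, 1 and 19 in gPLT2C212S, 1 and 4 for gPLT2C212S against plt2 and gPLT2 with mock, 2 and 3 for gPLT2 against plt2 at 0.3 nM and 5 nM, 5 for gPLT2C212S against plt2 at 5 nM, and 0, 1 and 4 for the responses of gPLT2C212S against plt2 at 0.3 nM and 5 nM and against gPLT2 at 5 nM. A single fit of all libraries gave 0 in plt2 and gPLT2 5 nM, 3 in gPLT2C212S 5 nM, 1, 2, 14 and 1 for gPLT2C212S against gPLT2 with mock, gPLT2 against plt2 at 0.3 nM and gPLT2C212S against plt2 and gPLT2 at 5 nM, and 1 and 0 for the responses of gPLT2 against plt2 at 0.3 nM and gPLT2C212S against gPLT2 at 5 nM. DESeq2 gave 2 for gPLT2 against plt2 at 0.3 nM, 1 for the response of gPLT2 against plt2 to 0.3 nM and 0 for that of gPLT2C212S against gPLT2 to 5 nM. With all counts as denominator the log2 ratio of the summed share of gPLT2C212S to plt2 with mock was 0.31.

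The replicate numbers were checked for pairing: correlations of same-numbered libraries ranged from -0.336 to 0.233, and in no comparison were all above 0.1. Same-numbered libraries were therefore not treated as pairs in the main fits. These correlations cannot show whether such libraries share a batch. Over all pairwise comparisons, 13 of 76 libraries correlated best with their own number. With the replicate block the counts were 0 in plt2 5 nM, 1 and 0 in gPLT2 at 0.3 nM and 5 nM, 33 in gPLT2C212S 0.3 nM, 7 for gPLT2C212S against gPLT2 with mock, 5 and 2 for gPLT2 against plt2 at 0.3 nM and 5 nM, 5 for gPLT2C212S against gPLT2 at 5 nM, and 1 and 0 for the responses of gPLT2 against plt2 to 0.3 nM and gPLT2C212S against gPLT2 to 5 nM.

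Leaving out 1 library gave counts of 0 in plt2 0.3 nM, 0 to 2 in plt2 5 nM, 0 to 1 and 0 to 3 in gPLT2, and 2 to 32 and 3 to 8 in gPLT2C212S at 0.3 nM and 5 nM. For gPLT2 against plt2 they were 0, 1 to 4 and 0 to 2 with mock, 0.3 nM and 5 nM, for gPLT2C212S against plt2 12 to 27, 4 to 16 and 16 to 32, and against gPLT2 1 to 3, 0 to 3 and 2 to 23. For the responses to 0.3 nM they were 0 to 3, 7 to 28 and 0 to 2, and to 5 nM 0, 0 and 0 to 1.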
